A study of Homo sapiens with 13 samples.

Results

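ID1, ID2, ID3 and ID4, the 4 genes of the human inhibitor of DNA binding family, were followed through both RNA-seq experiments of GFP::SMAD4 RUES2 cells. RUES2 is an established line of human embryonic stem cells, and here the signal transducer SMAD4 carries a green fluorescent tag. They were found by gene symbol, 1 row each, among the 61546 features of the count tables. The time series held 7 libraries of cells given 100 ng/mL BMP4, 5 µM IWP2 and RI: 2 at 0 h and 1 each at 4, 12, 20, 28 and 42 h. IWP2 blocks the secretion of Wnt ligands and RI is the ROCK inhibitor of the culture medium. Since this treatment also stands on the 0 h labels, those cells were taken to be collected when it began. The dose response held 6 libraries at 5 h without replicates. In 5 of them BMP4, IWP2 and RI were combined with LDN-193189 (LDN), which inhibits the BMP type I receptors, at 0, 10, 30, 100 or 300 nM, and 1 was of untreated cells, whose label names mTeSR medium alone. BMP4, IWP2 and RI therefore cannot be told apart in comparisons with the untreated cells. All libraries came from this 1 line, and no wild-type cells and no untreated cells after 0 h were sequenced in the time series.

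ID proteins are helix-loop-helix proteins without the basic region that binds DNA. They pair with E proteins, the ubiquitous basic helix-loop-helix (bHLH) factors encoded by TCF3, TCF4 and TCF12, and the pairs cannot bind the E-box, so that E proteins and their tissue-specific bHLH partners are held off their sites. BMP receptors phosphorylate SMAD1, SMAD5 and SMAD9, which enter the nucleus with SMAD4, and the ID genes are among the best known direct targets of these complexes in embryonic stem cells.

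The genes lie on 4 chromosomes. In GENCODE release 44 on GRCh38, ID1 (ENSG00000125968) spans bases 31605283 to 31606515 of chromosome 20 on the plus strand, and its canonical transcript has 2 exons and encodes 155 residues. ID2 (ENSG00000115738) spans bases 8678845 to 8684461 of chromosome 2 on the plus strand, with 3 exons and 134 residues. ID3 (ENSG00000117318) spans bases 23557926 to 23559501 of chromosome 1 on the minus strand, with 3 exons and 119 residues. ID4 (ENSG00000172201) spans bases 19837370 to 19842197 of chromosome 6 on the plus strand, with 3 exons and 161 residues. The transcripts differ in length, from 950 bases for ID3 to 3873 bases for ID4. The order of the ID genes by level was therefore taken from FPKM, which divides by length. Ratios of counts between ID genes were used for their change from library to library, and their size depends on length. ID2 shares 3020 bases of its span with the antisense gene ID2-AS1 on the other strand, and the strand setting of the counting is not given in the sources used here.

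SMAD complexes are known to bind GGCGCC, a GC-rich element of BMP response regions, and SMAD4 to bind GTCT. Each of the 4 ID genes had exactly 1 GGCGCC within the 3000 bases upstream of its RefSeq start site (GRCh38), at 965 bases from the start in ID1, 408 in ID2, 2962 in ID3 and 508 in ID4. This element, which reads the same on both strands, was found in 44.4% of the 35116 upstream regions of that length. The stretches around it are shown because all 4 genes moved with BMP4 and LDN as described below. The sequences run 5′ to 3′ on the strand of the gene, with GGCGCC and every GTCT or its complement AGAC in capitals. They lie at chr20:31604277-31604376 (plus strand), chr2:8681601-8681700 (plus), chr1:23562411-23562501 (minus) and chr6:19836815-19836914 (plus).
ID1: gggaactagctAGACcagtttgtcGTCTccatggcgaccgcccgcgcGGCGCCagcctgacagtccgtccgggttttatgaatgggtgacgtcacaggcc
ID2: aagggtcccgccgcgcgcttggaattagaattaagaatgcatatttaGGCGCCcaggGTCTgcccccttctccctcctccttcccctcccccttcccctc
ID3: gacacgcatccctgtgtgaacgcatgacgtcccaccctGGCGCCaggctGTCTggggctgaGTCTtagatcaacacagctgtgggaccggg
ID4: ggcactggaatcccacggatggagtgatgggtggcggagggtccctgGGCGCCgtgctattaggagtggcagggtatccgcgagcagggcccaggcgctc

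The ID1 and ID3 stretches held 2 GTCT or AGAC matches each, the ID2 stretch 1 and the ID4 stretch 0. How often other stretches of this length hold such matches was not computed, so these counts do not set the stretches apart. In the annotation the ID1 stretch overlaps an exon of ENSG00000289875, a gene without a symbol. The ID2 stretch lies in introns of ID2 and ID2-AS1, the ID4 stretch in an intron of LNC-LBCS and the ID3 stretch in no gene. Nearer the start, in the window from 250 bases before to 50 after it, none of the 4 genes held GGCGCC, which was found in 19.2% of all such windows. GTCT or AGAC occurred in all 4, as in 84% of windows, and GGAGCC or its complement GGCTCC in ID1, ID3 and ID4, as in 36% of windows. These matches describe the letters only, and binding was not measured here.

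The library totals were 37957385 to 71333471 counts in the time series and 15600931 to 33989998 in the dose response, the lowest being the untreated library. Levels are given in CPM, the counts of a gene scaled to the library total. Exact Poisson 95% intervals were computed for each level and cover counting error only. The eGFP sequence was detected in every library, at 22.4 to 30.0 CPM in the time series and 12.9 to 18.3 CPM in the dose response. The 6 pluripotent cell markers summed to 6141 CPM at 0 h and 5398 CPM in untreated cells, and none was under 1 CPM. At 42 h they summed to 3069 CPM, while 4 amnion-like markers rose from 0.744 CPM in sum at 0 h to 3745 CPM. These sums hide unlike members. From 0 h to 42 h LIN28A went from 2992 to 1806 CPM and POU5F1 from 1362 to 1145 CPM. SOX2 went from 382 to 11.6 CPM, NANOG from 131 to 1.08 CPM, TDGF1 from 595 to 11.7 CPM and DPPA4 from 680 to 93.6 CPM. Of the amnion-like markers HAND1 alone read 2919 CPM at 42 h. Markers of neural cells did not exceed 1.57 CPM and those of primitive streak and endoderm 5.43 CPM in sum. Within the latter, EOMES went from 0.260 CPM at 0 h to 3.52 CPM at 20 h and 0.294 CPM at 42 h, and from 0.128 CPM in untreated cells to 2.71 CPM with BMP4 and no LDN. FOXA2 went the other way, from 3.05 CPM at 0 h to 0.154 CPM at 4 h and from 3.97 CPM in untreated cells to 0.0348 CPM with BMP4 and no LDN. In bulk RNA, fewer cells of a kind and less RNA per cell cannot be told apart. Mitochondrial transcripts made up 7.60% and 4.29% of counts in 0 h replicates 1 and 2 and 2.01 to 4.23% later, and 7.89% in the untreated library against 4.22 to 4.49% with BMP4. Their part in the results below was not tested. The experiments used different extraction kits and library preparations, ribosomal RNA depletion in the time series and polyA selection in the dose response, so levels were not tested between them.

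All 4 ID genes rose steeply within 4 h of BMP4 and stayed above 0 h until 42 h. ID1, the most abundant of the family, stood at 56.4 and 63.9 CPM in 0 h replicates 1 and 2 and at 942 CPM at 4 h. It then read 1276 CPM at 12 h, 1604 CPM at 20 h, 1370 CPM at 28 h and 1303 CPM at 42 h. The mean at 0 h was 60.1 ± 5.33 CPM (SD, n = 2), so the level at 4 h was 15.7 times that at 0 h and the highest, at 20 h, 26.7 times. Both 0 h libraries lay far below every later one, and ID1 ended at 81.3% of its highest level.

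ID4, which is known for its role in neural progenitors, had a similar course from a lower start. It stood at 10.3 and 12.4 CPM at 0 h (11.3 ± 1.47, SD, n = 2) and at 192, 299, 409, 412 and 293 CPM at 4, 12, 20, 28 and 42 h. Its rise at 4 h was 17.0-fold and its highest level, at 28 h, 36.4 times that at 0 h, the largest fold of the family. The levels at 20 h and 28 h were nearly the same, and that at 42 h was 71.3% of the highest.

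ID3 rose with them and was highest at 20 h. It read 29.0 and 33.5 CPM at 0 h (31.3 ± 3.16, SD, n = 2), 253 CPM at 4 h, 384 CPM at 12 h and 491 CPM at 20 h. At 28 h it read 319.5 CPM and at 42 h 191 CPM, 38.8% of its maximum. It was 8.09 times its 0 h level at 4 h, 15.7 times at 20 h and 6.10 times at 42 h, so that 42 h was the lowest of the 5 later time points for ID3.

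ID2 alone had its highest level at 42 h. It read 8.25 and 9.95 CPM at 0 h (9.10 ± 1.21, SD, n = 2), then 67.6, 124, 153, 160 and 191 CPM at 4, 12, 20, 28 and 42 h. Each later library was above the one before it. The rise in CPM was 7.43-fold at 4 h, the smallest of the family, and 21.0-fold at 42 h. By FPKM the rise at 4 h was 7.94-fold for ID2 and 7.85-fold for ID3, so which was smallest depends on the unit. Divided by length, the deposited FPKM gave a different order for ID2 at 20 h (208) and 28 h (188), with 227 at 42 h, so the order of these neighbouring times depends on the unit.

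**Figure D1:**
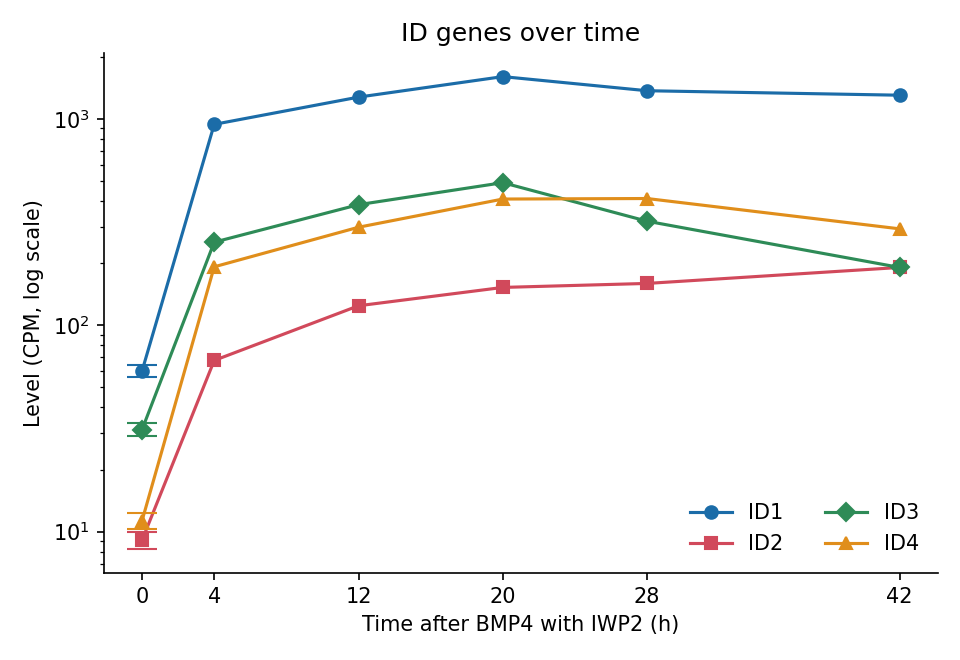
Level of ID1 to ID4 in CPM on a log axis against hours after BMP4 with IWP2; markers at 0 h are means and the short horizontal bars the 2 libraries, and each later point is 1 library. All 4 genes rose between 0 h and 4 h, and ID3 fell from 491 CPM at 20 h to 191 CPM at 42 h.

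Each gene was tested at each time against 0 h with edgeR's quasi-likelihood test across 15976 features, with TMM scaling and Benjamini-Hochberg adjustment. The spread came from the 2 libraries at 0 h, so each later library was assumed to vary as they did. At 4 h all 4 ID genes were called higher, where 4.39% of features were. The fitted log2 change at 4 h was 3.89 ± 0.35 (SE) for ID1, 2.81 ± 0.32 for ID2, 2.93 ± 0.33 for ID3 and 4.00 ± 0.34 for ID4, and the largest adjusted p in edgeR's test was 1.18e-15, for ID2. In the order of fitted change from the highest, ID4 was 67, ID1 70, ID3 127 and ID2 143 among these features. All 4 were also called higher at 12, 20, 28 and 42 h, against 7.04%, 12.4%, 13.3% and 19.9% of features. At 42 h the fitted changes were 4.67 ± 0.36 for ID1, 4.62 ± 0.34 for ID2, 2.85 ± 0.33 for ID3 and 4.93 ± 0.35 for ID4. ID3 then ranked 625 from the highest and the others between 243 and 274. Library totals set the level of all features at 42 h lower than TMM did, with a median log2 change of −0.25 against −0.01, and the CPM folds at 42 h carry that shift.

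No successive step after 4 h passed the test for any ID gene, where 1.36% of features changed from 4 h to 12 h, 2.04% from 12 h to 20 h, 1.16% from 20 h to 28 h and 9.15% from 28 h to 42 h. The step nearest to the threshold was that of ID2 from 4 h to 12 h, with a log2 change of 0.92 ± 0.39 and an adjusted p of 0.499 in edgeR's test. Neighbouring time points after 4 h thus do not differ beyond the spread assumed from 0 h, which does not show that the levels were equal. A line through the 5 libraries from 4 h to 42 h, with the scatter about it as error, rose for 20.1% of 15988 features. Among the ID genes ID2 rose along it, by 0.042 ± 0.0082 log2 per hour (adjusted p = 0.0118, edgeR). Without the 4 h library the ID2 slope was 0.028 (adjusted p = 0.0190). The slopes of ID1 (0.018 ± 0.0076, adjusted p = 0.115) and ID4 (0.023 ± 0.012, adjusted p = 0.173) missed the threshold in the same fit. ID1 passed it without the 20 h library (0.018, adjusted p = 0.0499) and ID4 without the 42 h library (0.054, adjusted p = 0.0133). The ID3 slope was −0.0081 ± 0.016 with an adjusted p of 0.704 in edgeR's test, and without the 42 h library it was 0.025.

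The later fall of ID3 was examined between 20 h and 42 h, times chosen after its levels had been seen. ID3 was 1.16 ± 0.39 lower on the log2 scale at 42 h (adjusted p = 0.0213, edgeR), where 11.3% of features were called lower. With no minimum on counts, so that more features were tested, the difference was 1.09 and the adjusted p 0.0571. Between the same times ID1 changed by −0.10 ± 0.41, ID4 by −0.28 ± 0.39 and ID2 by 0.52 ± 0.38, and none of these passed. Ratios of counts within a library do not depend on its scaling. The ratio of ID2 to ID3 was 0.267, 0.324, 0.311, 0.499 and 1.0 from 4 h to 42 h, and that of ID3 to ID4 went from 1.32 to 0.650. In exact permutation tests of the slope with hours over the 120 orders of the 5 libraries, also chosen after the levels were seen, these pairs had two-sided p = 0.0167 and p = 0.00833, and adjusted p of 0.050 each over the 6 pairs. None of the 6 pairs was under the threshold, and in FPKM 3 pairs were.

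**Figure D2:**
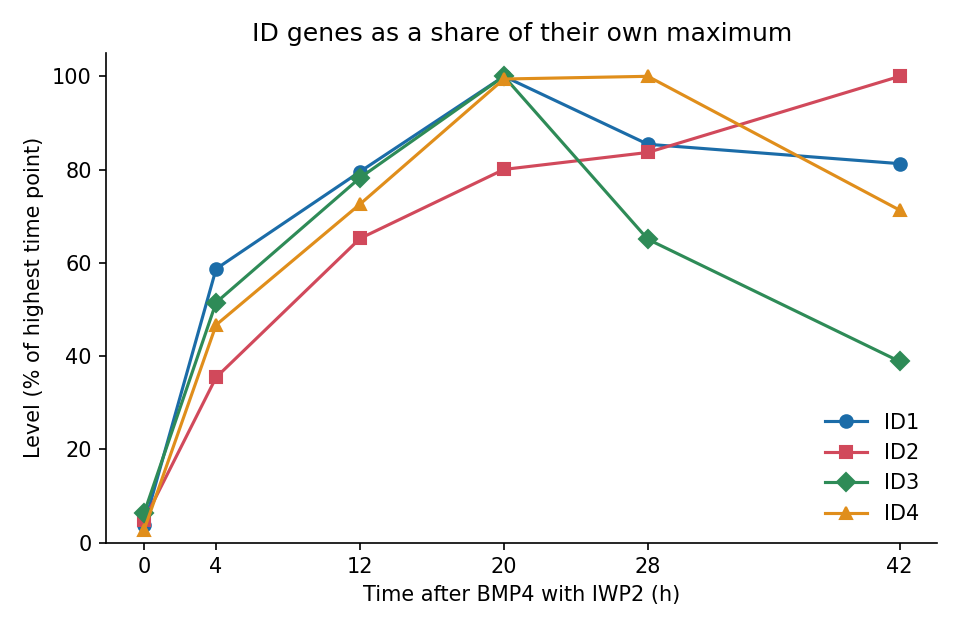
Level of each ID gene as a percentage of its own highest time point (CPM; 0 h is the mean of 2 libraries) against hours. At 42 h ID3 stood at 38.8% of its maximum and ID2 at 100%.

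The family as a whole took 0.0104% and 0.0120% of all counts in the 0 h libraries and 0.266% at 20 h. By FPKM the order of the members was ID1, ID3, ID2 and ID4 in every library of both experiments. At 0 h the mean FPKM was 81.5 ± 7.88 for ID1, 47.3 ± 4.90 for ID3, 9.32 ± 2.02 for ID2 and 3.15 ± 0.41 for ID4 (SD, n = 2). ID1 reached an FPKM of 2176 at 20 h, where it ranked 24 among all features. ID3 held 33.6% and 33.4% of the summed FPKM of the family in the 0 h libraries and 12.0% at 42 h, while ID1 held 58.2% and 57.3% at 0 h and 74.9% at 42 h. ID3 and ID2 were closest in proportion at 42 h, at 280.5 against 227 FPKM.

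At 5 h all 4 ID genes were far higher with BMP4, IWP2 and RI than in untreated cells, and all 4 fell as LDN was raised. ID1 read 1055 CPM without LDN and 1000, 843, 616 and 376 CPM at 10, 30, 100 and 300 nM, against 65.6 CPM (95% interval 61.7 to 69.8) in untreated cells. ID4 read 231 CPM without LDN and 195, 155, 100 and 53.5 CPM with it, against 7.37 CPM (6.09 to 8.85) in untreated cells. Both genes were lower at each higher dose, and neither reached the untreated level.

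ID2 read 142 CPM without LDN, then 120, 90.3, 60.3 and 34.0 CPM from 10 to 300 nM, and 15.6 CPM (13.7 to 17.7) in untreated cells. ID3 was the member that moved least. It read 325 CPM without LDN and 328 CPM at 10 nM, where the counting intervals of 318 to 332 and 322 to 334 CPM overlap. It then read 297 CPM at 30 nM, 223 CPM at 100 nM and 142 CPM at 300 nM, against 51.5 CPM (48.0 to 55.2) in untreated cells. In deposited FPKM ID3 was at 481.1 without LDN and 479.9 at 10 nM, so the sign of that small difference depends on the unit.

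**Figure D3:**
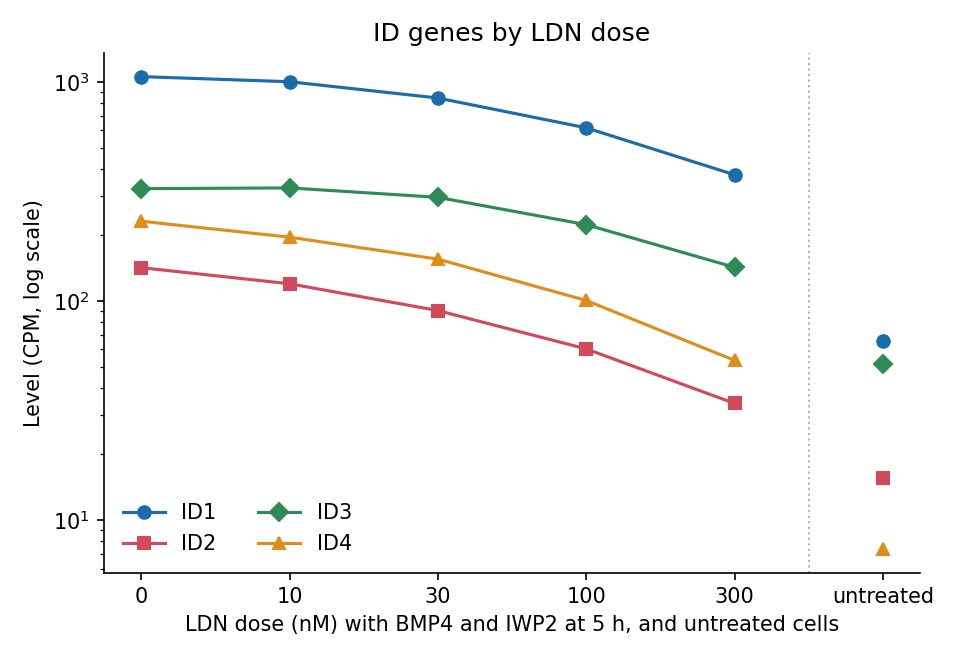
Level of ID1 to ID4 in CPM on a log axis at 5 h against LDN dose with BMP4 and IWP2, with untreated cells to the right of the dotted line; each point is 1 library. At 300 nM every ID gene was above its untreated level, from 34.0 against 15.6 CPM for ID2 to 376 against 65.6 CPM for ID1.

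The slope with dose was tested with edgeR on steps from 0 to 300 nM, across 14877 features, with the scatter of the 5 BMP4 libraries about the line as error. All 4 ID genes fell, where 10.9% of features did. The log2 change per step was −0.36 ± 0.04 (SE) for ID1, −0.49 ± 0.04 for ID2, −0.29 ± 0.04 for ID3 and −0.50 ± 0.04 for ID4, with adjusted p of 3.36e-05, 1.15e-06, 0.000408 and 4.66e-06. Without the 300 nM library the ID3 slope was −0.17 (adjusted p = 0.00197). With a robust estimate of the spread the slopes of ID1 and ID3 no longer passed in edgeR, with adjusted p of 0.0602 and 0.112. The doses had 1 culture each, so the scatter may understate the spread between cultures.

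Against untreated cells, the fitted level without LDN was higher by 4.13 ± 0.20 log2 for ID1, 3.27 ± 0.20 for ID2, 2.80 ± 0.21 for ID3 and 5.08 ± 0.29 for ID4. All 4 passed in edgeR's test, with 7.24e-07 the largest adjusted p, for ID3, where 23.0% of features were called higher and 45.0% in either direction. In CPM these were folds of 16.1 for ID1, 9.10 for ID2, 6.32 for ID3 and 31.3 for ID4. For ID2 the FPKM fold was 7.32. At 300 nM the ID genes were still above untreated cells, by 2.69 ± 0.20 log2 for ID1, 1.31 ± 0.22 for ID2, 1.65 ± 0.21 for ID3 and 3.09 ± 0.32 for ID4. All 4 passed (largest adjusted p 0.000823, for ID2, edgeR), where 16.5% of features were called higher. With the robust spread, ID2 (adjusted p = 0.109) and ID3 (adjusted p = 0.0641) did not pass in edgeR. The untreated library had the lowest depth and the highest mitochondrial share of the dose response, and the part of these in the comparison was not tested.

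The members differed from each other in their response to LDN. The ratio of ID3 to ID4 counts rose with each dose, from 1.41 without LDN to 1.68, 1.92, 2.22 and 2.66. The ratio of ID1 to ID2 rose from 7.45 to 11.1 and that of ID1 to ID4 from 4.57 to 7.03, while ID1 over ID3 fell from 3.25 to 2.65. In exact two-sided permutation tests of the slope of the log2 ratio over the 120 orders of the 5 libraries, 5 of the 6 pairs had p = 0.0167, the smallest that 5 evenly spaced steps allow, and adjusted p = 0.020. The slopes per step were 0.22 ± 0.007 for ID3 over ID4, −0.22 ± 0.01 for ID2 over ID3, 0.15 ± 0.01 for ID1 over ID4, 0.14 ± 0.007 for ID1 over ID2 and −0.07 ± 0.007 for ID1 over ID3 (SE about the line). ID2 over ID4 lay between 0.582 and 0.636 at all doses, with a slope of 0.0077 ± 0.016 (exact p = 0.733). The order of response was thus ID3 below ID1, and ID1 below ID2 and ID4, which were not told apart.

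On a linear scale, the excess over untreated cells that was left at 300 nM was 31.4% for ID1, 14.6% for ID2, 33.2% for ID3 and 20.6% for ID4. Interpolated on log10 dose between the flanking libraries, 50% of the excess was left at 47.9 nM for ID2, 66.2 nM for ID4, 129 nM for ID1 and 160 nM for ID3. Of 14 feedback inhibitors and other known direct BMP targets, 11 had at least 2 times the untreated CPM without LDN, and their excess left was computed in the same way. At 300 nM it was −1.08 to 23.1% (median 2.02%), the highest being SMAD7, an inhibitory SMAD, followed by BAMBI, a decoy receptor, at 12.2%. At 10 nM the 11 genes kept 35.5 to 87.7% (median 61.3%), against 82.5 to 101% for the ID genes. GATA3, a transcription factor of amnion and trophoblast, kept 61.3% at 10 nM and 1.0% at 300 nM. These are descriptions over single libraries, and the difference between the lists was not tested.

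**Figure D4:**
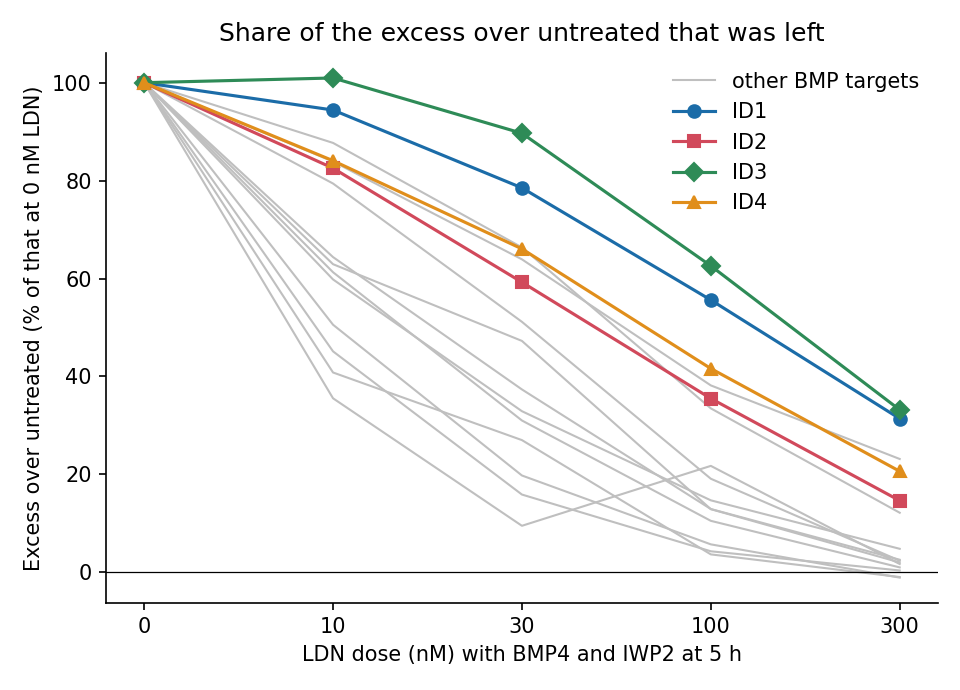
Excess over the untreated library at 5 h as a percentage of that at 0 nM LDN (CPM) against LDN dose, for the 4 ID genes in colour and 11 other BMP targets in grey; each point is 1 library. At 300 nM the ID genes kept 14.6 to 33.2% and the other targets −1.08 to 23.1%.

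In edgeR's tests of the same list of 14 targets, 11 rose at 4 h and 12 at 42 h, where 4.39% and 19.9% of all features rose. The median log2 changes were 3.92 and 6.84, against −0.01 over all features at both times. Of the 14, 7 were under 1 CPM at 0 h and passed the minimum through later times. The other 7 were at 1 CPM or more at both times compared, and 5 of them rose at 4 h and 6 at 42 h. With LDN 10 of the 12 tested fell, where 10.9% of all features did, with a median of −0.91 per step, and none rose. BAMBI fell by 0.63 ± 0.07 per step (adjusted p = 3.12e-05), SMAD6, another inhibitory SMAD, by 0.92 ± 0.03 (adjusted p = 1.14e-08) and NOG, which encodes the BMP antagonist Noggin, by 1.48 ± 0.07 (adjusted p = 3.68e-08). SMAD7, at 0.29 ± 0.02 (adjusted p = 4.39e-07), had the shallowest slope of those that fell. At 300 nM 4 of these 12 were called above untreated cells (SMAD6, SMAD7, BAMBI and GATA2), where 16.5% of all features were.

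Among 10 BMP receptors and SMADs, all tested over time, 1 rose at 4 h and 4 at 42 h, where 4.39% and 19.9% of all features rose. None fell, where 0.632% and 17.8% of all features did. SMAD9, a receptor-regulated SMAD, went from 2.12 CPM at 0 h to 25.7 CPM at 4 h and 45.1 CPM at 42 h, and it read 23.7 CPM with 0 nM LDN and 2.47 CPM with 300 nM, near the 2.24 CPM of untreated cells. The receptors BMPR2, ACVR1 and BMPR1A were the others called higher at 42 h. They rose by 2.03 ± 0.32, 1.62 ± 0.30 and 1.44 ± 0.32 log2 (adjusted p of 1.99e-09, 8.05e-07 and 5.48e-05, edgeR). With LDN 5 of the 9 tested fell, where 10.9% of all features did, namely SMAD9, BMPR2, BMPR1A, SMAD1 and ACVR1. SMAD4 itself, the tagged gene, was at 172 CPM at 0 h and 136 CPM at 42 h and at 99.2 to 109 CPM in the dose response, and passed no test against 0 h at 4 h or 42 h, against dose or against untreated cells.

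The partners of the ID proteins were not called at any time against 0 h. Of TCF3, TCF4, TCF12 and USP1, the last of which encodes a deubiquitinase known to stabilise ID proteins, none passed at 4, 12, 20, 28 or 42 h. Of all features 5.02%, 9.68%, 18.5%, 20.3% and 37.7% were called in either direction at these times, so none among 4 genes does not set the partners apart. TCF3 stood at 387 CPM at 0 h and 278 CPM at 42 h, with a log2 change of −0.24 ± 0.34 (adjusted p = 0.623, edgeR). TCF4 stood at 122 and 154 CPM (0.57 ± 0.33, adjusted p = 0.161, edgeR). It rose along the line from 4 h to 42 h by 0.019 log2 per hour (adjusted p = 0.0431, edgeR), where 20.1% of features rose. In the dose response TCF3 rose by 0.04 ± 0.01 per step (adjusted p = 0.0408), where 10.4% of features rose. It read 313 CPM without LDN and 347 to 359 CPM with it. Without LDN, TCF4, TCF12 and TCF3 were lower than in untreated cells by 0.54 ± 0.05, 0.34 ± 0.05 and 0.25 ± 0.05 log2 (adjusted p of 6.09e-06, 0.000283 and 0.00221, edgeR), where 22.0% of features were called lower. At 300 nM LDN TCF4 and TCF12 were still lower, by 0.56 ± 0.05 and 0.30 ± 0.05 (adjusted p of 1.04e-05 and 0.00126), and TCF3 differed by −0.09 ± 0.05 (adjusted p = 0.251). Neither TCF4 nor TCF12 was called with dose, where 21.3% of features were in either direction.

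Summed over the family, FPKM of the ID genes were 130 and 152 at 0 h and those of TCF3, TCF4 and TCF12 284 and 297, a ratio of 0.460 and 0.512. At 4 h the sums were 1770 and 293, a ratio of 6.04, and the ratio was 9.71, 10.3, 10.2 and 9.44 at 12, 20, 28 and 42 h. In the dose response it was 9.74 without LDN, 8.37, 7.09, 5.23 and 3.24 at the rising doses and 0.763 in untreated cells. The order of the sums therefore differed between both 0 h libraries and untreated cells on one side and every library after BMP4 on the other. These are transcript levels, and protein was not measured in these files.

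**Figure D5:**
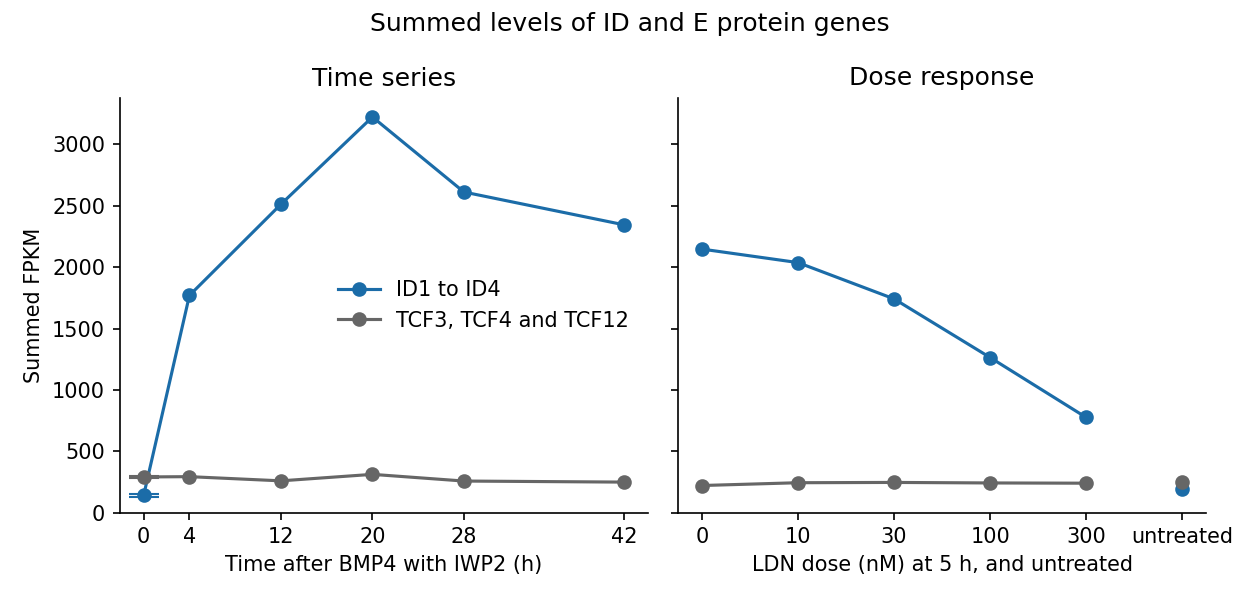
Summed FPKM of ID1 to ID4 and of the E protein genes TCF3, TCF4 and TCF12 against hours (left; short bars at 0 h are the 2 libraries, circles their mean) and against LDN dose at 5 h with untreated cells (right). The ID sum was below the E protein sum at 0 h and in untreated cells and above it in every other library, including 775 against 240 at 300 nM LDN.

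Few of the tissue-specific bHLH factors that pair with E proteins were expressed. Of 41 listed, 13 passed the minimum over time, so the others were not tested. Against 0 h 4 of the 13 rose and 2 fell at 4 h, and 5 rose and 2 fell at 42 h, with a median log2 change of −0.16 at 42 h. Of all features 4.39% rose and 0.632% fell at 4 h, and 19.9% rose and 17.8% fell at 42 h. Of the 13, 6 were under 1 CPM at 0 h and passed the minimum through times when they were high, so these counts do not describe the list. Among the 6 at 1 CPM or more at both 0 h and 4 h none rose and 1 fell, and among the 5 at both 0 h and 42 h 1 rose and none fell. HAND1, a factor of amnion and extraembryonic mesoderm, went from 0.0334 CPM at 0 h to 5.98 CPM at 4 h and 2919 CPM at 42 h. OLIG3, a neural tube factor, was at 4.35 CPM at 0 h and at 0.154 CPM or less at every later time, and it was tested only because it was high at 0 h. MSC, a repressor of muscle genes, was at 4.83 CPM at 0 h and 1.28 CPM at 4 h and fell (adjusted p = 0.00142, edgeR). With LDN 3 of 9 tested fell, HAND1, BHLHE22 and ATOH8, where 10.9% of all features fell and 10.4% rose, and 2 rose, MSC (0.45 ± 0.08 per step, adjusted p = 0.00154) and TCF15 (0.14 ± 0.04, adjusted p = 0.0331).

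Of 4 genes known as targets of E proteins or IDs, 3 were tested over time. At 4 h none was called, where 5.02% of all features were in either direction. At 42 h the 3 were called higher, where 19.9% of all features were. CDKN2B passed the minimum only through its level at 42 h, and CDKN2A, at 0.466 CPM at 0 h and 1.70 CPM at 42 h, was not tested. The E-cadherin gene CDH1 went from 285 CPM at 0 h to 287 CPM at 4 h and 893 CPM at 42 h, a log2 change of 1.88 ± 0.33 at 42 h (adjusted p = 1.12e-07, edgeR). The cell cycle inhibitor genes CDKN1A and CDKN2B went from 4.70 to 10.6 CPM and from 0.225 to 7.94 CPM (adjusted p of 6.45e-05 and 1.05e-25). With LDN neither CDH1 nor CDKN1A, the 2 tested, was called, where 21.3% of all features were in either direction. Such small counts do not set these genes apart.

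The genes with the profile most like each ID gene were named by Pearson's r of log2(CPM + 0.5) over the 13 libraries, centred within each experiment, among the 9581 genes whose mean reached 10 CPM in both. The libraries share their treatment and depth, so r is a description. For ID1 these were ID4 (r = 0.997), BMPR1A (0.984) and BAMBI (0.984), and for ID4 they were ID1 (0.997), BMPR1A (0.987) and COL9A2, a collagen gene (0.985). For ID2 they were BAMBI (0.997), GATA2 (0.995) and TFAP2A (0.994), both of these being transcription factor genes of the amnion-like program. For ID3 they were FOXI3, a forkhead factor gene (0.982), UNC5B, a netrin receptor gene (0.980), and ID1 (0.980). Among the members the lowest r was that of ID2 with ID3, at 0.947, and ID3 stood at 71 in the order of genes like ID2.

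Copies and overlapping genes held few counts. ID2-AS1 read 0.342 and 0.112 CPM at 0 h, 2.49 CPM at 4 h and 3.54 CPM at its highest, at 28 h. It was called higher at 4 h than at 0 h (adjusted p = 4.42e-10, edgeR), where 4.39% of all features were. It was under 1 CPM at 0 h and was tested only because it was higher at later times. In the dose response it read 1.67 CPM with 0 nM LDN, 0.422 CPM with 300 nM and 0.128 CPM in untreated cells, and its slope of −0.32 ± 0.12 per step did not pass (adjusted p = 0.0874). Reads from the 3020 bases that ID2 and ID2-AS1 share cannot be told apart without strand. Those bases end at 8681864, upstream of the RefSeq start site of ID2, so reads downstream of that start do not overlap ID2-AS1. The processed pseudogene ID2B on chromosome 3 (bases 62124204 to 62124608) had at most 7 counts in any library.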

How the data were processed

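The count tables hold expected counts that the authors made with RSEM 1.3.3, after trimming with Cutadapt and alignment with STAR 2.7.8a to GRCh38 from ENSEMBL, whose release is not given in the sources used here. The deposited values are whole numbers and carry no scaling between libraries. The deposited FPKM values, which the authors normalized for length and depth, were used to compare levels between genes and as an alternative. CPM was computed on the library totals (15600931 to 71333471 counts; a floor of 3 counts is 0.042 to 0.192 CPM). The 5 reporter features stayed in the totals and out of the tests. The ID genes and all lists were chosen with earlier results of these data known.

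Counts were tested with edgeR 4.0.16 (R 4.3.3; quasi-likelihood, TMM, mean of at least 1 CPM in the libraries of the fit, Benjamini-Hochberg over all features tested, threshold 0.05), the time points as a factor with 1 residual degree of freedom, and the trends from 4 h and with LDN as lines with 3. In the dose fit the untreated library had its own term. Later times and doses have no replicate, and the labels do not say whether the 0 h libraries came from separate cultures, so the p-values may measure technical spread; the 0 h libraries differed by far more than sampling noise (chi-square of 120 per degree of freedom over 21131 genes) and were counted as 2. Ratios of ID genes were tested by exact permutation. Alternatives were DESeq2 1.42.0, other scalings and minimums, a robust spread, and libraries left out. Named genes were the 4 ID genes, antisense genes and copies with their symbols, the 3 genes most like each, and lists of partners, bHLH factors, BMP receptors and SMADs, BMP targets, ID or E protein targets and cell type markers. Tests were checked on simulated data. Gene models are from GENCODE release 44 and start sites from RefSeq (GRCh38.p14), in which all 4 genes matched. Python 3.11.15, pandas 2.3.3, numpy 2.4.6 and matplotlib 3.10.9 were used.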

Additional observations from a re-analysis of the deposited data

How the results depend on the processing

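Of 490 alternative values for the results on ID genes, 478 kept their direction and their side of the threshold. The sign changed in 2 that were called in neither setting, ID1 at 42 h against 28 h on library totals (−0.072) and the ID3 slope from 4 h to 42 h without the 42 h library (0.025). With the robust spread the dose slopes of ID1 (−0.36) and ID3 (−0.29) and the difference of 300 nM LDN from untreated cells for ID2 (1.31) and ID3 (1.65) kept their values and lost the threshold, and with no minimum on counts ID3 at 42 h against 20 h (−1.09) did. With single time points left out, the slope from 4 h to 42 h ranged from 0.0058 to 0.032 log2 per hour for ID1, from −0.032 to 0.025 for ID3 and from 0.0043 to 0.054 for ID4. In FPKM the ratio slopes with hours passed for ID1 over ID2 (−0.028), ID2 over ID3 (0.052) and ID3 over ID4 (−0.030). The FPKM and TMM scales moved 10 of 80 log2 levels by more than the SD at 0 h. Of 216 counts over all features under the alternatives, 45 moved by over 1.5 times, 43 of them down. Leaving out the untreated library, the contrast of 42 h with 20 h and the ratio slopes with hours were chosen after seeing the data. Where a call changed, the cause was not tested. No paired analysis was possible because 0 h alone has more than 1 library. With 1 library per later time and dose, no spread between cultures was measured there; the limit is this number and not depth, since the lowest ID count was 115.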
